A study of Homo sapiens with 16 samples.

Results

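The mitochondrially encoded mRNAs of cytochrome c oxidase (MT-CO1, MT-CO2 and MT-CO3), of ATP synthase (MT-ATP6 and MT-ATP8) and of cytochrome b (MT-CYB) were followed in a SLAM-seq pulse-chase of THP-1, an established human cell line from a monocytic leukaemia. They were taken from the deposited table by symbol and were 6 of its 60564 genes and 6 of the 16241 genes tested. SLAM-seq marks new RNA with 4-thiouridine (4sU), which is read as T-to-C conversions, and the values are conversion rates, here in percent of sequenced T. The tested cells carried an ALKBH5 knockdown, labelled A5-KD, and were collected after 0, 1.5, 4.5 and 7.5 h of chase. The control cells were wild type for ALKBH5, which encodes an RNA demethylase that removes m6A, and were collected at the same times. All cells had received 100 µM 4sU for 1 h and were then kept in 10 mM uridine, and polyadenylated RNA was sequenced. Each of the 8 groups held 2 libraries, 16 in all. How the knockdown was made, and whether replicates were separate cultures, is not given in the sources used here.

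Library medians over the tested genes ran between 0.532% and 1.19% in knockdown and between 0.250% and 0.556% in control. The number of T bases behind a rate is not in the table, so its depth is unknown. The table has a single abundance column, in CPM, reads scaled to their total, whose library is not named, so the level of ALKBH5 (CPM 4.55) could not be compared between genotypes. In that column 9 of 10 monocytic markers had a CPM of at least 1, MPO being the exception, against 0 of 3 T-cell, 1 of 3 B-cell, 1 of 3 erythroid, 1 of 3 epithelial and 0 of 3 fibroblast markers. The columns of the knockdown were identified by elimination, because their prefix is not spelled out in the labels.

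Human mitochondria keep a small circular genome that is transcribed into long precursors. Most of its mRNAs are freed when the tRNAs between them are cut out, and short A tails are then added inside the organelle. The proteins encoded by the 6 mRNAs are embedded in the inner membrane and join many nuclear-encoded subunits: MT-CO1, MT-CO2 and MT-CO3 form the core of the oxidase, MT-ATP6 and MT-ATP8 belong to the membrane part of ATP synthase, and MT-CYB is the mitochondrially encoded subunit of complex III. A conversion rate is a proportion, lowered both by decay of labelled molecules and by dilution with newly made unlabelled ones, and it does not measure abundance.

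All 6 genes lie on the plus strand of the mitochondrial chromosome (hg38, GENCODE 29), and each annotated gene is a single exon. MT-CO1 (ENSG00000198804) spans chrM:5904-7445 and MT-CO2 (ENSG00000198712) spans chrM:7586-8269. MT-ATP8 (ENSG00000228253) at chrM:8366-8572, MT-ATP6 (ENSG00000198899) at chrM:8527-9207 and MT-CO3 (ENSG00000198938) at chrM:9207-9990 follow without a gap. MT-CYB (ENSG00000198727) stands apart from them at chrM:14747-15887.

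MT-ATP8 and MT-ATP6 share 46 bases, which are 22.2% of MT-ATP8 and 6.75% of MT-ATP6, and MT-ATP6 and MT-CO3 share 1 base. The shared bases are shown because T bases in them belong to both genes, so the rates of these neighbours are not fully separate measurements, and how the authors assigned reads there is not given in the sources used here. The sequences, from the GENCODE 29 transcripts, have the shared bases in capitals.
MT-ATP8/MT-ATP6 overlap, chrM:8512-8587, plus strand: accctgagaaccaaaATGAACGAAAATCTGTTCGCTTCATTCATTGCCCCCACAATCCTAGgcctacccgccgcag
MT-ATP6/MT-CO3 junction, chrM:9188-9226, plus strand: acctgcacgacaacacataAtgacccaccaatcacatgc

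The last 30 bases of each annotated gene are shown because the libraries were made from polyadenylated RNA, and in part of these mRNAs the A tail also completes the stop codon. Where the tail is added was not measured, so an annotated end need not be the tailed end of the mRNA. MT-CO3 and MT-CYB each have 1 base beyond whole codons, a T, which the tail extends to a stop. As annotated, the other 4 genes end in a whole codon, which for MT-CO1 is AGA, read as a stop in human mitochondria. The last A of MT-ATP6 is, however, the base shared with MT-CO3. The annotated end of MT-ATP8 lies inside MT-ATP6 and is not the end of their shared transcript. Capitals mark the last codon or the base left over.
MT-CO1 end, chrM:7416-7445: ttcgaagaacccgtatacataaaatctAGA
MT-CO2 end, chrM:8240-8269: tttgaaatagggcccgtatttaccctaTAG
MT-ATP8 end, chrM:8543-8572: tcgcttcattcattgcccccacaatccTAG
MT-ATP6 end, chrM:9178-9207: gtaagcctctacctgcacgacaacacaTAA
MT-CO3 end, chrM:9961-9990: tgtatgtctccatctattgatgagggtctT
MT-CYB end, chrM:15858-15887: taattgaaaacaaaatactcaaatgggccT

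The T share and length of each gene were read from the annotation, and whether they bear on the conversion rates was not tested. The share of T was 21.7% in MT-ATP8, 25.2% in MT-CO2 and MT-CYB, 25.6% in MT-ATP6, 26.6% in MT-CO1 and 26.7% in MT-CO3, against a median of 24.1% (quartiles 20.8% and 27.1%) over 12332 nuclear coding genes. Annotated lengths were 207 bases for MT-ATP8, 681 for MT-ATP6, 684 for MT-CO2, 784 for MT-CO3, 1141 for MT-CYB and 1542 for MT-CO1. Per kilobase, the abundance column gave 2177 CPM for MT-ATP8, 1711 for MT-CO2, 649.5 for MT-ATP6, 440.6 for MT-CO3, 331.5 for MT-CYB and 177.7 for MT-CO1, with no replicate.

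The conversion rates of all 6 mRNAs were higher in knockdown at every time and fell through the chase in both genotypes. MT-CO1 encodes the oxidase subunit that carries the oxygen-reducing centre. Its rates in knockdown were 0.786 and 0.752% at 0 h, 0.644 and 0.661% after 1.5 h, 0.422 and 0.410% after 4.5 h, and 0.296 and 0.275% after 7.5 h. Its rates in control were 0.323 and 0.318% at 0 h, 0.272 and 0.271% after 1.5 h, 0.156 and 0.153% after 4.5 h, and 0.112 and 0.107% after 7.5 h. MT-CO1 had the lowest mean rate of the 6 at 0 h in both genotypes and the second highest at 7.5 h in both.

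MT-CO2, the subunit that receives electrons from cytochrome c, had knockdown rates of 0.979 and 1.01% at 0 h, 0.734 and 0.761% after 1.5 h, 0.394 and 0.392% after 4.5 h, and 0.260 and 0.243% after 7.5 h. In control MT-CO2 had rates of 0.389 and 0.378% at 0 h, 0.279 and 0.288% after 1.5 h, 0.142 and 0.143% after 4.5 h, and 0.0996 and 0.0819% after 7.5 h. MT-CO2 thus started above MT-CO1 in both genotypes and ended below it. For MT-CO3, the remaining core subunit, knockdown rates were 0.844 and 0.879% at 0 h, 0.692 and 0.683% after 1.5 h, 0.407 and 0.394% after 4.5 h, and 0.248 and 0.259% after 7.5 h. For MT-CO3 in control they were 0.348 and 0.346% at 0 h, 0.248 and 0.275% after 1.5 h, 0.135 and 0.138% after 4.5 h, and 0.0946 and 0.0687% after 7.5 h. The widest gap between replicates of MT-CO3 relative to its level was at 7.5 h in control.

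MT-ATP6, whose protein forms part of the proton path of ATP synthase, had knockdown rates of 0.929 and 0.939% at 0 h, 0.855 and 0.830% after 1.5 h, 0.514 and 0.515% after 4.5 h, and 0.315 and 0.330% after 7.5 h. In control MT-ATP6 had rates of 0.408 and 0.362% at 0 h, 0.328 and 0.358% after 1.5 h, 0.164 and 0.175% after 4.5 h, and 0.142 and 0.129% after 7.5 h. From 1.5 h on MT-ATP6 had the highest mean of the 6 in both genotypes. MT-ATP8, a small subunit encoded on the same transcript, had knockdown rates of 0.933 and 0.914% at 0 h, 0.703 and 0.758% after 1.5 h, 0.430 and 0.410% after 4.5 h, and 0.236 and 0.267% after 7.5 h. In control MT-ATP8 had rates of 0.363 and 0.400% at 0 h, 0.271 and 0.307% after 1.5 h, 0.151 and 0.147% after 4.5 h, and 0.104 and 0.0896% after 7.5 h. MT-ATP8 had the smaller mean of the pair at every time in both genotypes.

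MT-CYB, the subunit of complex III that holds its quinone sites, had knockdown rates of 1.09 and 1.06% at 0 h, 0.749 and 0.738% after 1.5 h, 0.361 and 0.366% after 4.5 h, and 0.222 and 0.265% after 7.5 h. In control MT-CYB had rates of 0.391 and 0.399% at 0 h, 0.289 and 0.278% after 1.5 h, 0.137 and 0.127% after 4.5 h, and 0.0907 and 0.0855% after 7.5 h. MT-CYB had the highest mean of the 6 at 0 h in both genotypes, the lowest in both at 4.5 h and the lowest in knockdown at 7.5 h. For each of the 6 mRNAs, the knockdown and control libraries of a given time did not overlap. The library medians over all tested genes were also apart at each time. At 0 h these medians were 1.187 and 1.175% in knockdown and 0.5395 and 0.5557% in control. The share of all genes without such overlap was not counted, so whether the separation is particular to these mRNAs cannot be said. After 7.5 h the knockdown rates of each of the 6 mRNAs were below its control rates at 0 h.

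**Figure D1:**
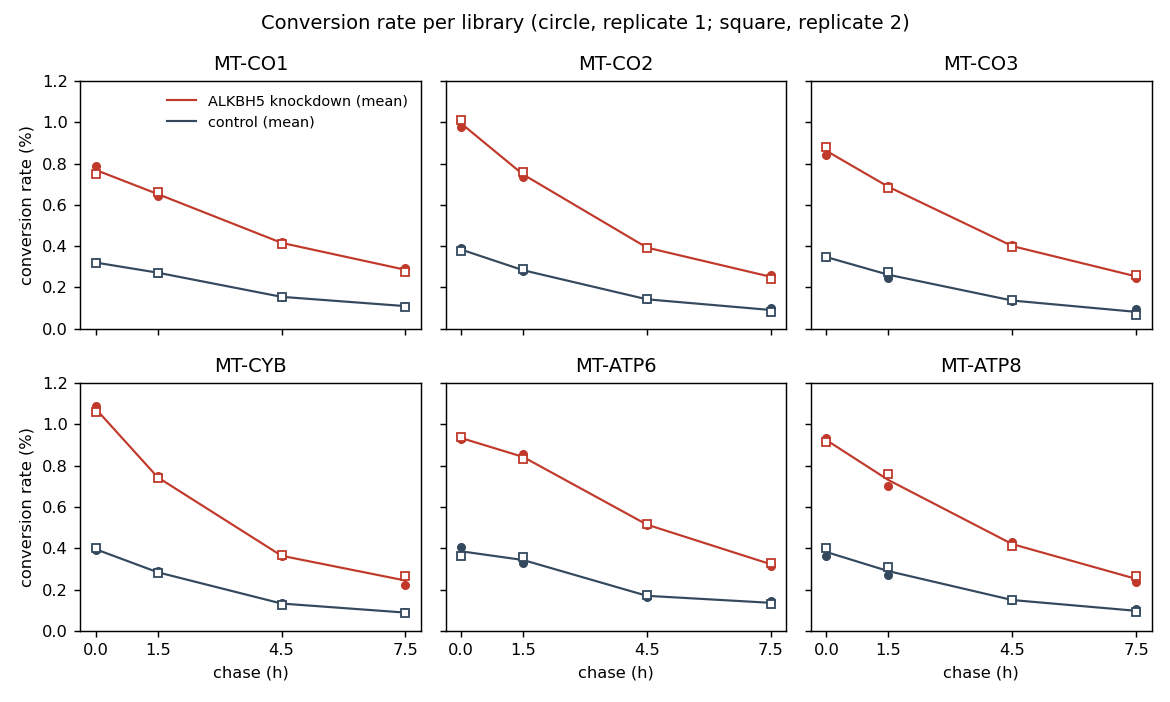
Conversion rate (%, y axis) against hours of chase (x axis) for each of the 6 mRNAs, knockdown in red and control in blue, with circles and squares for replicates 1 and 2 and lines through the means. The knockdown points lie above the control points at each time, and MT-CYB starts highest, with means of 1.08% in knockdown and 0.395% in control at 0 h.

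Set against other genes, these mRNAs had low rates, and they moved further down the ranking as the chase went on. At 0 h they stood between the 32nd and 44th percentile of the tested genes in knockdown and between the 28th and 34.3rd in control. At 7.5 h they stood between the 12th and 18.4th percentile in knockdown and between the 10.6th and 18.6th in control. The mean rate at 7.5 h was between 22.7% (MT-CYB) and 37.1% (MT-CO1) of that at 0 h in knockdown, and between 22.3% (MT-CYB) and 35.2% (MT-ATP6) in control. The mean of the library medians over all tested genes was 45.1% of its 0 h value in knockdown and 46.0% in control.

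The rates of the 6 mRNAs rose in knockdown by about as much as those of most genes. As ratios of group means, knockdown over control was between 2.38 (MT-ATP6 at 7.5 h) and 3.11 (MT-CO3 at 7.5 h). Rates were then tested on the scale log2(rate in percent + 0.05), where differences at low rates are understated, with limma over all genes and Benjamini-Hochberg adjustment at 0.05. With time as a factor the difference, knockdown minus control, was 1.13 ± 0.0458 log2 (SE) for MT-CO1, 1.16 ± 0.0515 for MT-ATP8, 1.18 ± 0.0546 for MT-ATP6, 1.21 ± 0.0404 for MT-CO2, 1.21 ± 0.0513 for MT-CYB and 1.23 ± 0.0506 for MT-CO3. All 6 passed (limma adjusted p between 2.23e-11 and 2.40e-10), and so did 69.6% of all tested genes in the same direction, whose median over all was 1.02. The 6 differences stood between the 62nd and 72.4th percentile of all genes.

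At single times the 6 mRNAs were again higher in knockdown at 0 h, where 35.6% of tested genes were, and likewise at 1.5 h (38.9% of genes), at 4.5 h (38.3%) and at 7.5 h (33.5%). The range over the 6 was 1.15 to 1.34 log2 at 0 h, 1.13 to 1.26 after 1.5 h, 1.19 to 1.36 after 4.5 h and 1.01 to 1.21 after 7.5 h. The medians of all genes at these times were 1.01, 1.08, 1.05 and 0.921. Every one of the 24 values of the 6 mRNAs was above the median of its time.

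**Figure D2:**
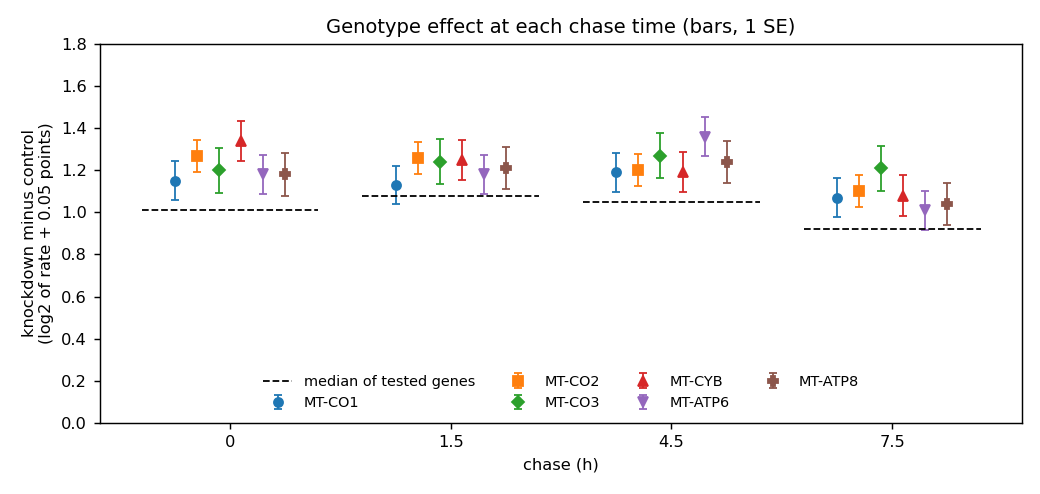
Knockdown minus control (log2 of rate + 0.05 percentage points, y axis) at each chase time (x axis) for the 6 mRNAs, with bars of 1 SE and dashed lines at the median of all tested genes. The 6 mRNAs lie between 1.01 and 1.36, and the dashed lines between 0.921 and 1.08.

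To set that common shift aside, every library was centred on its own median log2 rate, which took 1.05 log2 from the genotype difference. With the filter on low values, the centred differences were above 0, at 0.084 ± 0.0465 (SE) for MT-CO1, 0.12 ± 0.0485 for MT-ATP8, 0.13 ± 0.0506 for MT-ATP6, 0.16 ± 0.0401 for MT-CO2, 0.17 ± 0.0504 for MT-CYB and 0.18 ± 0.053 for MT-CO3. Of the 6, MT-CO2 passed (limma adjusted p = 0.0295), where 1.45% of all genes were higher, and adjusted p for the others was between 0.0568 and 0.35. The MT-CO2 call rested on single libraries: without knockdown 0 h replicate 1 or 2, knockdown 1.5 h replicate 2, knockdown 7.5 h replicate 1, control 0 h replicate 2, control 1.5 h replicate 1, control 4.5 h replicate 2 or control 7.5 h replicate 2, its adjusted p was between 0.0507 and 0.0624. Without knockdown 7.5 h replicate 1 MT-CYB passed (0.0449), and without control 7.5 h replicate 1 MT-CO3 passed (0.0388). A pseudocount of 0.01 gave 3 calls, and a pseudocount of 0.2 or no variance trend gave 0. Without the filter the direction turned: the centred differences of all 6 were between −0.60 and −0.51, with MT-CO1 (adjusted p = 0.0348) and MT-ATP8 (adjusted p = 0.0468) called lower in knockdown. At single times the centred limma fit called 0 of the 6, where 0.548% of genes changed at 0 h, 0.511% after 1.5 h, 0.727% after 4.5 h and 1.1% after 7.5 h, and unadjusted p was under 0.05 for MT-CO2 and MT-CYB at 0 h, for 0 at 1.5 h, for MT-ATP6 at 4.5 h and for MT-CO3 at 7.5 h. Without the filter all 6 were below 0 at each time on the centred scale, and at 7.5 h all 6 were called lower in knockdown (−1.40 to −1.20 log2, adjusted p between 0.00771 and 0.022).

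The fall in rate during the chase was fitted as a slope per hour in each genotype, and all 6 mRNAs fell in both. The slope of MT-CYB was the steepest, at −0.26 ± 0.0186 log2 per hour (SE) in knockdown and −0.23 ± 0.0186 in control. MT-CO2 followed with −0.24 ± 0.0136 in knockdown and −0.22 ± 0.0136 in control, and MT-ATP8 had −0.23 ± 0.0144 in knockdown and −0.21 ± 0.0144 in control. MT-CO3 had −0.214 ± 0.0143 in knockdown and −0.216 ± 0.0143 in control.

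The slowest falls were those of MT-ATP6, at −0.19 ± 0.0166 in knockdown and −0.18 ± 0.0166 in control, and of MT-CO1, at −0.18 ± 0.0135 in knockdown and −0.17 ± 0.0135 in control. Expressed as the time for a 2-fold fall in rate plus pseudocount, the slopes spanned 3.82 h (MT-CYB) to 5.71 h (MT-CO1) in knockdown and 4.35 h (MT-CYB) to 5.94 h (MT-CO1) in control. Adjusted p in limma was at most 4.94e-07 in knockdown, where 37.9% of all genes fell, and at most 1.16e-06 in control, where 34.4% fell. The median slope of all genes was −0.13 in knockdown and −0.11 in control.

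After centring, which took −0.15 log2 per hour from the knockdown slopes and −0.14 from the control slopes, 5 of the 6 still fell in each genotype. In knockdown 8.62% of all genes fell on this scale, and in control 9.46%. The centred slopes were −0.112 (MT-CYB), −0.093 (MT-CO2), −0.0777 (MT-ATP8), −0.0641 (MT-CO3) and −0.0432 (MT-ATP6) in knockdown, with adjusted p between 5.40e-05 and 0.0326. In control they were −0.0946 (MT-CYB), −0.0847 (MT-CO2), −0.0805 (MT-CO3), −0.0756 (MT-ATP8) and −0.0422 (MT-ATP6), with adjusted p between 0.000164 and 0.0363. MT-CO1 had centred slopes of −0.025 ± 0.0127 in knockdown (adjusted p = 0.162) and −0.0329 ± 0.0127 in control (adjusted p = 0.0666).

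The MT-ATP6 call on the centred scale was lost in knockdown without knockdown 0 h replicate 1 or 2, 1.5 h replicate 1, or 7.5 h replicate 1 or 2 (adjusted p between 0.0547 and 0.131). In control it was lost without control 0 h replicate 1, 1.5 h replicate 1 or 2, or 7.5 h replicate 2 (adjusted p between 0.056 and 0.118). Without the filter on low values 0 of the 6 passed on the centred scale in either genotype: the knockdown slopes were −0.104 to −0.0174, and the control slopes turned positive, at 0.0404 to 0.102. With a pseudocount of 0.2 the control count was 3.

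No difference in slope between the genotypes was called. Knockdown minus control was −0.0316 ± 0.0263 log2 per hour (SE) for MT-CYB, −0.0228 ± 0.0193 for MT-CO2, −0.0168 ± 0.0203 for MT-ATP8, −0.0157 ± 0.0235 for MT-ATP6, −0.0067 ± 0.019 for MT-CO1 and 0.0018 ± 0.0202 for MT-CO3. Limma adjusted p was between 0.819 and 0.992, and unadjusted p between 0.246 and 0.931. Over all genes limma called 0 slope differences (0%), with 1269 at an unadjusted p under 0.05.

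**Figure D3:**
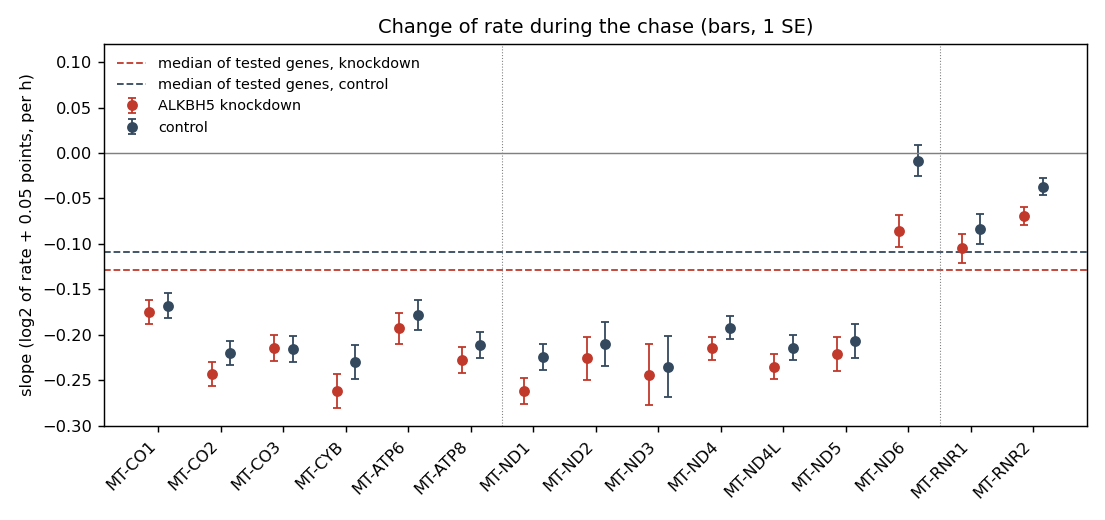
Slope of log2(rate + 0.05 percentage points) per hour of chase (y axis) for the 6 mRNAs, the 7 complex I mRNAs and the 2 rRNAs of the mitochondrial genome (x axis), knockdown in red left of control in blue, with bars of 1 SE and dashed lines at the medians of all tested genes. The 6 mRNAs lie between −0.26 and −0.17, below both dashed lines, while MT-ND6, MT-RNR1 and MT-RNR2 lie above them.

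Between neighbouring times the steps differ in length, 1.5 h for the first and 3 h for each of the others. Whole steps are therefore not set against each other here. Per hour, MT-CYB in knockdown changed by −0.337 log2 in the first step and by −0.313 in the next. MT-CYB in control went the other way, from −0.277 to −0.292. Each other mRNA also fell faster per hour in the second step than in the first, in both genotypes. MT-ATP6 in knockdown, for example, went from −0.094 to −0.22. In the third step all 6 fell more slowly per hour than in the second, in both genotypes. MT-ATP6, for example, went from −0.22 to −0.2 in knockdown and from −0.279 to −0.0813 in control. Rates were lowest in that last step, where the added 0.05 understates differences most. These differences between steps were not tested. From 0 to 1.5 h limma called 0 of the 6 in either genotype, with 5 at an unadjusted p under 0.05 in each, and 0.0554% of genes changed in knockdown and 0.0739% in control. The largest of these early steps was that of MT-CYB, at −0.51 ± 0.0953 log2 (SE) in knockdown and −0.42 ± 0.0953 in control, and the smallest that of MT-ATP6, at −0.14 ± 0.0918 in knockdown and −0.15 ± 0.0918 in control.

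From 1.5 to 4.5 h all 6 fell in knockdown, by 0.59 (MT-CO1) to 0.94 (MT-CYB) on the log2 scale, where 4.64% of genes fell, and all 6 fell in control, by 0.65 (MT-CO1) to 0.88 (MT-CYB), where 5.05% fell. Without a variance trend the calls of this step dropped to 0 in knockdown and 3 in control, and after centring to 1 (MT-CYB) in knockdown and 0 in control. Without knockdown 1.5 h replicate 2 there were 3 calls in knockdown, without 1.5 h replicate 1 there were 4, and without 4.5 h replicate 1 there were 5.

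From 4.5 to 7.5 h all 6 fell in knockdown, by 0.48 (MT-CO1) to 0.64 (MT-ATP8) on the log2 scale, where 1.87% of genes fell. MT-CO2 and MT-CO3 fell in control, by 0.46 and 0.51, where 1.63% fell. These last steps were the least stable: in knockdown 0 calls were left without 4.5 h replicate 1 or 2, 1 without 7.5 h replicate 1, 2 without 7.5 h replicate 2 and 4 without 0 h replicate 1 or 2. In control 0 were left without 4.5 h replicate 1 or 2, and 2 without either knockdown 7.5 h library or control 7.5 h replicate 1, while each of the other 11 libraries left out gave 1. After centring, or with no variance trend, 0 were called in either genotype.

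Among themselves the 6 mRNAs differed in level. Over the 16 libraries, exact two-sided paired sign-flip permutation tests of the 15 pairs, adjusted together, put MT-ATP6 above each of the other 5 when all times were pooled. At 0 h alone the order was another, with mean rates of 1.08% for MT-CYB, 0.996% for MT-CO2 and 0.934% for MT-ATP6 in knockdown, and of 0.395% for MT-CYB and 0.385% for MT-ATP6 in control. MT-ATP6 was higher than MT-CO1 in 16 of 16 libraries (mean difference 0.24 ± 0.0909 log2, SD, adjusted p = 0.000229 in the exact test, from the smallest p that 65536 arrangements allow, 3.05e-05). It was higher than MT-CO3 in 16 of 16 (0.28 ± 0.128), than MT-ATP8 in 14 of 16 (0.19 ± 0.135), than MT-CO2 in 13 of 16 (0.19 ± 0.169) and than MT-CYB in 13 of 16 (0.21 ± 0.224), with exact adjusted p between 0.000229 and 0.00765. MT-CO3 was lower than MT-CO2 (exact adjusted p = 0.00443) and than MT-ATP8 (exact adjusted p = 0.00107). The other 8 pairs did not pass, with mean differences of 0.0088 to 0.0675 log2, so the order of MT-CO2, MT-ATP8, MT-CYB and MT-CO1 was not resolved by this test.

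That order changed with time, and the change was tested as the slope of each mRNA minus the mean of the other 5 (permutation test, 100000 resamples of the times within genotype, adjusted over 6). MT-CO1 gained 0.0477 log2 per hour on the others (adjusted p = 6.00e-05, permutation, from the smallest p the resamples allow, 1e-05) and MT-ATP6 gained 0.0313 (adjusted p = 0.00285, permutation). MT-CYB lost ground at −0.0412 (adjusted p = 0.0017, permutation) and MT-CO2 at −0.0241 (adjusted p = 0.00021, permutation). MT-CO3 (−0.0042, adjusted p = 0.49) and MT-ATP8 (−0.0095, adjusted p = 0.0881) did not pass the permutation test, and MT-ATP8 passed without control 0 h replicate 1 (0.0393) or control 1.5 h replicate 1 (0.0424). In each genotype taken alone the slopes of the 4 that passed had the same sign. These 6 contrasts are not independent, since what 1 mRNA gains the others lose.

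**Figure D4:**
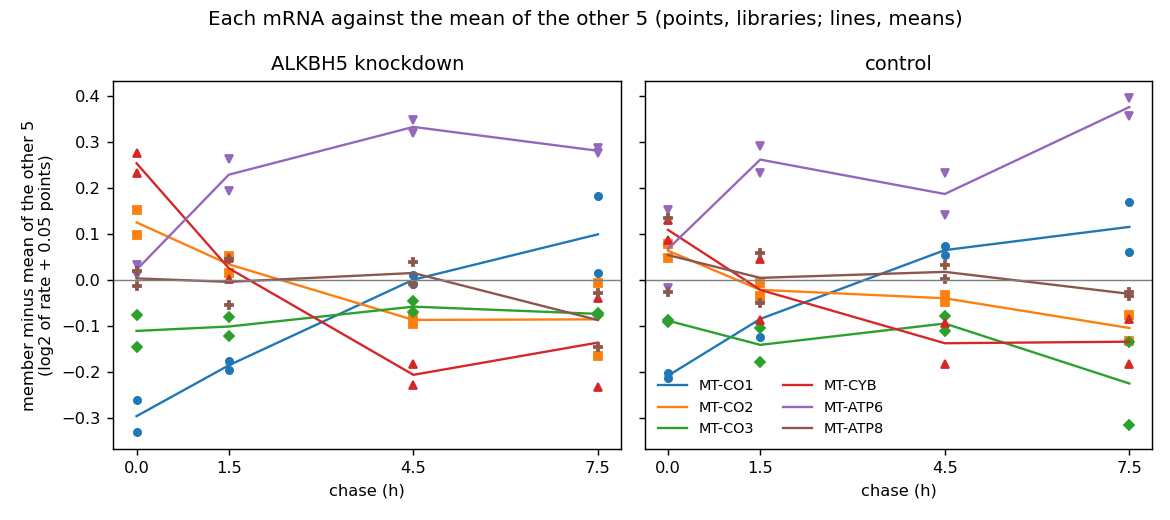
Each mRNA minus the mean of the other 5 (log2 of rate + 0.05 percentage points, y axis) against hours of chase (x axis), knockdown on the left and control on the right, with points for libraries and lines through the means. MT-CO1 climbs from the lowest place and MT-CYB drops from the highest, and MT-ATP6 stays above 0 in the means of both genotypes.

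MT-CYB and MT-CO1, a pair chosen after their values were seen, exchanged places. The ratio of their rates, MT-CYB over MT-CO1, was 1.39 and 1.41 at 0 h, 1.16 and 1.12 after 1.5 h, 0.857 and 0.894 after 4.5 h, and 0.751 and 0.965 after 7.5 h in knockdown. In control it was 1.21 and 1.26 at 0 h, 1.06 and 1.03 after 1.5 h, 0.876 and 0.831 after 4.5 h, and 0.811 and 0.798 after 7.5 h. In every library up to 1.5 h MT-CYB was the higher, and in every library from 4.5 h MT-CO1 was.

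MT-ATP6 and MT-ATP8 lie on a shared transcript and share 46 bases, as printed above, yet their rates separated during the chase. MT-ATP6 over MT-ATP8 was 0.996 and 1.03 at 0 h, 1.22 and 1.10 after 1.5 h, 1.19 and 1.26 after 4.5 h, and 1.33 and 1.24 after 7.5 h in knockdown. In control it was 1.12 and 0.907 at 0 h, 1.21 and 1.16 after 1.5 h, 1.09 and 1.19 after 4.5 h, and 1.36 and 1.44 after 7.5 h. All 12 libraries from 1.5 h on had ratios above 1. The annotated length, the T share and the abundance also differ between the 2 genes (207 against 681 bases, 21.7% against 25.6% T, and 2177 against 649.5 CPM per kilobase), and their part in the ratio was not tested.

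The genotype difference did not single out any of the 6. Tested as each mRNA minus the mean of the other 5, with genotypes permuted within times (exact test, adjusted over 6), none passed. The largest in size was MT-CO1 at −0.0674 log2 (exact p = 0.037, adjusted 0.222), and the range of the others was −0.0298 to 0.0512. Without knockdown 7.5 h replicate 1, MT-CO1 passed (−0.0884, exact adjusted p = 0.0185).

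The 7 complex I mRNAs of the same genome encode subunits of NADH dehydrogenase, and 6 of them also passed in the genotype difference and in both slopes. MT-ND1, MT-ND2, MT-ND3, MT-ND4, MT-ND4L and MT-ND5 had genotype differences of 1.02 to 1.25 log2 and slopes of −0.262 to −0.215 in knockdown and −0.235 to −0.192 in control, against 1.13 to 1.23, −0.262 to −0.175 and −0.23 to −0.168 for the 6 mRNAs described here. After centring, 6 of the 7 complex I mRNAs still fell in each genotype and 1 rose. In the centred genotype difference MT-ND4L was called higher in knockdown (0.20 ± 0.0448 log2, SE, limma adjusted p = 0.0149) and MT-ND6 lower. Without the filter on low values the MT-ND4L difference turned to −0.49. MT-ND6 is the mRNA encoded on the opposite strand (chrM:14149-14673, minus strand), and its rates were the lowest, with group means of 0.0883, 0.0738, 0.0612 and 0.0363% over the chase in knockdown and 0.0458, 0.0421, 0.0383 and 0.0417% in control. Its slope was −0.0861 ± 0.0174 in knockdown (adjusted p = 0.000871, and 0.128 over 0 to 4.5 h) and −0.0083 ± 0.0174 in control (adjusted p = 0.751), and its genotype difference of 0.30 turned to −0.75 after centring. The 2 mitochondrial rRNAs also had smaller genotype differences, 0.50 for MT-RNR1 and 0.29 for MT-RNR2, which turned to −0.55 and −0.76 after centring. The rates of MT-ND6 and MT-RNR2 lie near the added 0.05, which understates their log2 differences, and centring takes 1.05 log2 from these. As ratios of group means, knockdown over control was 1.93, 1.75, 1.6 and 0.871 over the chase for MT-ND6. For MT-RNR2 it was 1.56, 1.46, 1.36 and 1.24. MT-RNR1 and MT-RNR2 fell with slopes of −0.105 and −0.069 in knockdown and −0.0836 and −0.037 in control, which after centring turned to 0.0447 and 0.0812 in knockdown and 0.052 and 0.0985 in control. The MT-RNR2 call in control was lost with a pseudocount of 0.2 (adjusted p = 0.051) and without the variance trend (0.164).

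Setting the 6 mRNAs against the mean of the complex I mRNAs gave answers that depended on whether MT-ND6 was included. Against all 7, the genotype difference was larger in each of the 6 mRNAs by 0.10 to 0.20 log2 (exact permutation, adjusted p between 0.00231 and 0.0262, the smallest unadjusted p the arrangements allow being 0.00154), and against the 6 without MT-ND6 it was −0.0224 to 0.0764 and 0 of 6 passed (exact adjusted p between 0.13 and 0.728, with MT-CO3 at an unadjusted p of 0.0216). MT-CO1 did not pass against all 7 without control 1.5 h replicate 2 (exact adjusted p = 0.0617). In the slopes, 5 of 6 passed against all 7 and 3 against the 6. MT-CO3 (−0.0166 against all 7) turned to 0.00862 and MT-ATP8 (−0.021) to 0.00424 without MT-ND6. Against all 7, MT-CO3 was also lost without knockdown 7.5 h replicate 1 or 2, or without control 0 h replicate 1, 1.5 h replicate 1 or 2, 4.5 h replicate 2, or 7.5 h replicate 1 or 2 (permutation adjusted p between 0.0522 and 0.16, and −0.00903 without control 7.5 h replicate 2). Without MT-ND6, MT-CO1 fell more slowly than the complex I mean by 0.0519 log2 per hour (adjusted p = 0.00144, permutation), MT-ATP6 fell more slowly by 0.0382 (adjusted p = 0.0171, permutation), and MT-CYB fell faster, at −0.0222 (adjusted p = 0.0171, permutation).

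The nuclear genes for the same complexes, which are transcribed in the nucleus and translated in the cytosol, moved the other way during the chase. Of 11 nuclear oxidase subunits, 10 rose in knockdown and 8 in control, none fell, and the medians were 0.0873 log2 per hour in knockdown and 0.0698 in control. Over all genes 4.06% rose in knockdown and 3.45% in control. COX5A rose by 0.14 ± 0.0167 (SE, limma adjusted p = 7.66e-06) and COX4I1 by 0.14 ± 0.0227 (adjusted p = 0.000175) in knockdown, and COX7A2 and COX5B by 0.0905 and 0.0959. In control COX5A rose by 0.12 ± 0.0167 (adjusted p = 5.02e-05), and COX7A2, COX5B and COX7C by 0.0698 to 0.0871.

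Of 17 nuclear ATP synthase subunits, 13 rose in knockdown and 9 in control, and none fell, with medians of 0.0792 in knockdown and 0.0681 in control. ATP5PO, the stalk subunit that confers oligomycin sensitivity, rose by 0.0918 ± 0.0143 in knockdown (adjusted p = 0.000102), and ATP5PF, ATP5PD and ATP5MG, a coupling factor and subunits of the stalk and membrane part, rose by 0.0879 to 0.109. In control ATP5PO, ATP5MC1, ATP5PF and ATP5F1E rose by 0.079 to 0.0961. Among 9 nuclear complex III subunits 7 rose and 1 fell in knockdown, and 6 rose and 0 fell in control, with medians of 0.086 in knockdown and 0.0667 in control. CYC1, the cytochrome c1 subunit that works beside cytochrome b, rose by 0.104 ± 0.0241 in knockdown (adjusted p = 0.00257) and by 0.0965 ± 0.0241 in control (adjusted p = 0.00493, and 0.0686 over 0 to 4.5 h). On the centred scale all 11 oxidase and all 17 ATP synthase genes rose in both genotypes, where 17.7% of all genes rose in knockdown and 17.6% in control. Of the 9 complex III genes, 7 rose in knockdown and 8 in control on that scale, and none fell.

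**Figure D5:**
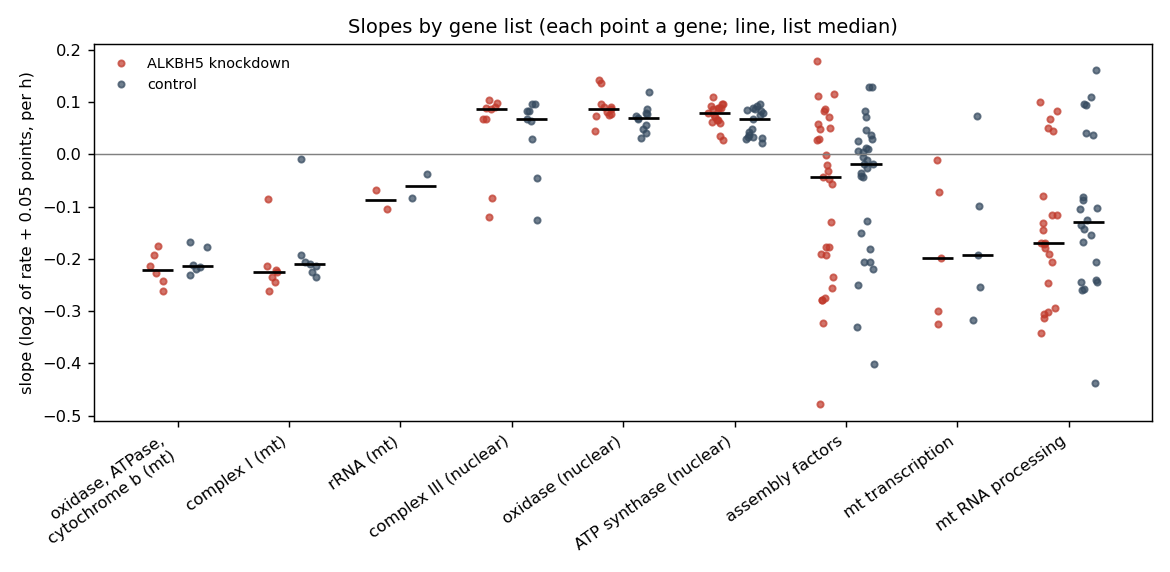
Slope of log2(rate + 0.05 percentage points) per hour of chase (y axis) for each gene of 9 lists (x axis), knockdown in red left of control in blue, with lines at list medians. The 6 mitochondrial mRNAs have medians of −0.22 in knockdown and −0.21 in control, and the nuclear subunits of the same complexes have medians of 0.0667 to 0.0873.

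Genes that act on these mRNAs or assemble their products were more mixed. Of 5 genes of mitochondrial transcription, 3 fell in knockdown and 4 in control, beside 37.9% of all genes falling in knockdown and 34.4% in control. TEFM, an elongation factor, had −0.30 ± 0.0367 in knockdown (limma adjusted p = 1.13e-05) and −0.25 ± 0.0367 in control (adjusted p = 6.48e-05). MTERF1, a DNA-binding terminator of transcription, had −0.20 in knockdown and −0.32 in control, and TFB2M, an initiation factor, had −0.32 in knockdown and −0.19 in control. TFAM, which packages the mitochondrial genome, had −0.0714 ± 0.0358 in knockdown (adjusted p = 0.123) and −0.0981 ± 0.0358 in control (adjusted p = 0.0405). The TFAM call in control was lost without control 0 h replicate 1 or 2, 1.5 h replicate 2, 4.5 h replicate 1 or 7.5 h replicate 1 (adjusted p between 0.0556 and 0.297, with a slope of −0.0564 without the last). The TFB2M call in control was lost without control 7.5 h replicate 1 (0.0832) or 2 (0.13), so that without control 7.5 h replicate 1 both calls were gone. Over 0 to 4.5 h neither gene passed in control (0.276 for TFAM and 0.687 for TFB2M, whose slope was −0.0697).

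Of 22 genes of mitochondrial RNA processing and stability, 10 fell and 2 rose in knockdown, and 9 fell and 2 rose in control, shares close to the 37.9% of all genes that fell in knockdown and the 34.4% that fell in control. The median was −0.17 in knockdown and −0.13 in control, and after centring it was −0.02 in knockdown and 0.0052 in control. TRMT10C, a subunit of the RNase P that cuts at tRNAs, had −0.30 ± 0.0245 in knockdown (adjusted p = 3.24e-07) and −0.21 ± 0.0245 in control (adjusted p = 1.13e-05), and FASTKD2, an RNA-binding protein of mitochondrial RNA granules, had −0.34 in knockdown and −0.24 in control.

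Of 29 assembly factors, 10 fell and 2 rose in knockdown, and 7 fell and 3 rose in control, against 37.9% of all genes falling in knockdown and 34.4% in control. PET117, an oxidase assembly factor, had −0.48 ± 0.0701 in knockdown (adjusted p = 5.88e-05, and 0.0674 over 0 to 4.5 h) and −0.33 ± 0.0701 in control (adjusted p = 0.00151). UQCC2, which aids the making of cytochrome b, had 0.18 ± 0.0214 in knockdown (adjusted p = 9.03e-06) and 0.13 ± 0.0214 in control (adjusted p = 0.00022), while its partner UQCC1 had −0.26 in knockdown and −0.22 in control, where its adjusted p was 0.0612 over 0 to 4.5 h. The median of the assembly factors was −0.0433 in knockdown and −0.018 in control before centring, and 0.107 in knockdown and 0.118 in control after it.

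The genes whose profile lay closest to the mean profile of the 6 mRNAs were then listed, by the root mean square difference in log2(rate + 0.05) over the 16 libraries after each profile was set to its own mean. The candidates were the 8120 tested genes at or above the median CPM of 9.66, and their median distance was 0.559. MT-ND4 (0.0359) and MT-ND4L (0.0831) came first and MT-ND1 (0.113) was the fifth, and the 6 mRNAs themselves lay between 0.0493 and 0.128. The nuclear genes among the first 10 were AL035446.2 (0.104), MEF2C (0.107), ARGLU1 (0.115), NCAM2 (0.117), CPNE8 (0.118), LRMDA (0.118) and RBM39 (0.122). MT-ND6 ranked 4960 and MT-RNR2 ranked 4776. All candidates share the same libraries, so these distances are a description.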

How the data were processed

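Libraries of polyadenylated RNA from 16 THP-1 samples were compared. Alignment to hg38 with HISAT2 2.1.0, and CASAVA, are named per the submitters' processing notes; the conversion caller, variant masking and annotation are not stated there. The deposited values are a fraction per gene and library, read from their range and the assay as T-to-C conversion rates and shown in percent. The deposited CPM column, named by the file headers, held whole reads in 100% of values (tolerance 0.1, step 0.0265); with 1 such column and no sample named, no count test was possible. Per the file headers, another deposited column gives gene length in bases, a plain value.

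Rates in percent plus 0.05 were put on the log2 scale. limma 3.58.1 (R 4.3.3), with a variance trend on log2(CPM + 0.01), tested genes whose CPM was 1 or more and whose rate exceeded 0 somewhere, with Benjamini-Hochberg adjustment over all 16241 genes at 0.05. Fits had genotype with time as a factor, 8 group means, or an intercept and slope per genotype. Contrasts between members used permutation tests in Python 3.11.15. The fits were tested on simulated data with known changes.

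Symbols came from the table or from GENCODE 29. The members and gene lists were chosen with earlier results of these data known. Named were all 6 members, the complex I mRNAs and rRNAs, up to 4 genes per other list with the smallest adjusted p in the comparison described, the 10 nearest profiles and up to 4 pseudogenes by CPM. The labels do not tie replicates to separate cultures; the spread behind p-values may thus be technical. Unlabelled cells were not analysed here, and the mismatch background is not known. Alternatives changed the pseudocount, filter, variance trend, centring, times, replicate block and libraries left out.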

Additional observations from a re-analysis of the deposited data

How the results depend on the processing

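Of 150 alternative values for 26 results, 125 kept the count of members called within 1.5 times. The 6 of 6 genotype calls, overall and at each time, and the 6 of 6 falling slopes in each genotype held under every alternative run but centring, which left 1 of 6 for the genotype difference, 0 of 6 at each time and 5 of 6 for each slope. With libraries centred, the genotype difference (1 of 6 called) gave 3 with a pseudocount of 0.01, 0 with 0.2, 0 without a variance trend and, with no filter on low values, 2 called in the other direction, lower in knockdown. The centred slopes (5 of 6) gave 3 in control with a pseudocount of 0.2, and 0 in each genotype without the filter. The early step in knockdown (0 of 6) gave 2 with a pseudocount of 0.2 and 2 without the filter. The 1.5 to 4.5 h step (6 of 6) gave 0 in knockdown and 3 in control without the variance trend, and 1 in knockdown and 0 in control after centring. The 4.5 to 7.5 h step gave 0 in knockdown (6 of 6) without the trend and 0 after centring. In control (2 of 6) it gave 5 with a pseudocount of 0.01, 0 with 0.2, 4 with a CPM minimum of 5, 1 without the filter, 0 without the trend, 1 with the replicate block and 0 after centring. Against complex I without MT-ND6, an alternative chosen after seeing the data, 0 of 6 genotype contrasts passed (6 with it) and 3 of 6 slope contrasts (5 with it).

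Without the filter 37510 genes entered, the shift removed by centring was 1.74 log2 for the genotype difference and −0.27 per hour for the control slope, against 1.05 and −0.14, and centred values turned. The centred genotype difference became −0.53 for MT-CO2, −0.60 for MT-CO1, −0.57 for MT-ATP8, −0.63 for MT-ND2, −0.58 for MT-ND4 and −0.49 for MT-ND4L. At 7.5 h it became −1.31 (MT-CO2), −1.33 (MT-CYB), −1.34 (MT-CO1), −1.40 (MT-ATP6), −1.20 (MT-CO3) and −1.37 (MT-ATP8), and all 6 were called. The centred control slope became 0.0503 (MT-CO2), 0.0404 (MT-CYB), 0.0928 (MT-ATP6), 0.0546 (MT-CO3) and 0.0595 (MT-ATP8). Without MT-ND6, the contrast with complex I became −0.0224 for the genotype difference of MT-CO1 and 0.00862 and 0.00424 for the slopes of MT-CO3 and MT-ATP8.

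Leaving out 1 library at a time gave 0 to 2 calls for the centred genotype difference, 4 to 5 for each centred slope, 3 to 6 and 0 to 6 for the later knockdown steps and 0 to 2 for the last control step. It gave 7 to 7 of the ordered pairs, 0 to 1 (genotype) and 4 to 5 (time) contrasts with the other members, and 5 to 6 (genotype) and 4 to 5 (time) with complex I. Replicate numbers did not pair the libraries: same-numbered libraries of 28 group pairs had a median correlation of 0.00592 in their deviations (−0.0239 to 0.0396), and with the replicate block MT-CO3 lost its last control step (adjusted p = 0.058) and no other count of members moved. Depth per rate is unknown.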

Other observations

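The nuclear genome carries many copies of mitochondrial sequence, and the table held 179 rows for nuclear pseudogenes of the 6 mRNAs, of which 5 were tested. Reads of near-identical copies can be assigned to either, and how the authors placed them is not given in the sources used here. The tested row with the most reads, MTATP6P1 (CPM 49.4), had rates of 1.16 and 1.02% in knockdown and 0.601 and 0.605% in control at 0 h, and 0.551 and 0.415% in knockdown and 0.289 and 0.270% in control at 7.5 h. MTCO2P12 (CPM 10.3) had higher rates than MT-CO2 in all 16 libraries, at 4.47 and 4.14% in knockdown and 2.14 and 2.45% in control at 0 h, and 1.62 and 1.55% in knockdown and 1.04 and 0.661% in control at 7.5 h. MTCO1P12 (CPM 5.26) had 2.32 and 2.24% in knockdown and 1.71 and 1.11% in control at 0 h, and 1.03 and 1.38% in knockdown and 1.08 and 0.768% in control at 7.5 h, where the genotypes overlapped. MTCO1P40 (CPM 1.51) was listed at 0 in 1 control library, and its replicates were far apart in knockdown at 7.5 h, at 3.91 and 0.334%.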
